A study of Mus musculus with 4 samples.

Results

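The MYC family and the MAX network were described by the RNA levels of 10 genes, out of 14533 in the deposited table, in mouse embryonic stem cells (ESCs). Members were chosen by family and not by their values, though with earlier results of these data known. They were the MYC family (Myc, Mycn and Mycl1), the shared partner Max, the large MAX partner Mga, and the antagonists Mnt, Mxd1, Mxd3, Mxd4 and Mxi1. All 10 were in the table and all 10 passed the filter on low values. Serum ESCs were grown in medium with fetal calf serum and the cytokine LIF. 2i ESCs were grown in serum-free medium with LIF, PD0325901, which inhibits MEK, and CHIR99021, which inhibits GSK3. Both groups had been adapted to their medium for over 20 days and both were sorted in G1-phase. The sample labels give late G1-phase, whereas the series description gives early G1-phase. There were 2 libraries in each group and 4 in all, and the labels name no cell line, genotype or donor animal. The series is described as holding biological replicates, but nothing tells how the cultures were separated, so p-values measure only the spread between these libraries.

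MYC proteins bind DNA as pairs with MAX at the E-box, and recruit coactivators that raise transcription of genes for ribosome production, metabolism and cell-cycle entry. The MXD proteins, MXI1 and MNT compete for MAX and bring SIN3 and histone deacetylases to the same sites. MGA also pairs with MAX, within a Polycomb complex that keeps germline genes silent in ESCs. MYC and MYCN together sustain the growth of ESCs in culture, and GSK3 marks MYC proteins for destruction, a step that RNA levels do not show.

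The E-box CACGTG is the DNA site that MAX pairs bind, and it reads the same on both strands. It was searched in RefSeq promoter windows (build GRCm38.p6), which run from 250 bases before to 50 bases after each start site. Of 27025 genes with a window, 2187 (8.09%) held the box, and 3 of the 9 members with a window held it. No window was given for Myc. The windows of Mycn, Mycl1, Mga, Mxd1, Mxd3 and Mxi1 did not hold these letters. The member boxes are shown with 10 bases on either side and the box in capitals, because they show which network genes carry the motif of the network itself. The Max box began 3 bases before the start site at chr12:76962236-76962261 on the minus strand, the Mnt box 123 bases before it at chr11:74830791-74830816 on the plus strand, and the Mxd4 box 219 bases before it at chr5:34187914-34187939 on the minus strand.
Max: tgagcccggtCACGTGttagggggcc
Mnt: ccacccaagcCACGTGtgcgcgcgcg
Mxd4: gctgggccacCACGTGctgttgctaa

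The libraries held 18939401 to 26570098 whole reads in the table. Protein-coding genes took 46.9% to 76.3% of the normalized counts, and the 10 most abundant genes took 17.5% to 50.6%. Library 2 of each group stood apart by gene length. In serum replicate 2 genes of up to 2118 bases of exon lay 0.33 below the mean of the libraries (median, log2 scale), and in 2i replicate 2 genes of 5508 bases or more lay 0.26 below it. The ESC markers Pou5f1, with 8452 to 20050 normalized counts, and Nanog, with 9449 to 13612, were abundant in every library. Of the fibroblast markers, Col1a1 had 57.0 and 8.75 normalized counts in serum ESCs against 68.5 and 50.4 in 2i ESCs, and its groups overlapped. Thy1 had 173 and 185 in serum ESCs against 131 and 7.76 in 2i ESCs, so that both serum values lay above both 2i values. The 6 other fibroblast markers were not analysed here.

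Myc, the founding member of the family and a driver of cell growth, showed the largest difference of the 10 genes. Serum replicate 1 held 131 normalized counts of it and serum replicate 2 held 657, while the 2i libraries held 7.27 and 4.85. Both serum libraries lay above both 2i libraries, and the lower serum value was 18.0 times the higher 2i value. The 2i values rested on 7 and 5 reads, for which exact Poisson 95% intervals, which cover counting error only, ran from 2.92 to 15.0 and from 1.57 to 11.3 normalized counts. The serum libraries differed from each other by 5.01 times, which is beyond their counting intervals of 109.6 to 156 and 608 to 709. The log2 fold change was 5.41 (SE 1.17, 95% interval 2.59 to 8.22) with an unadjusted p of 0.00302 and an adjusted p of 0.753 in limma. Myc was therefore not called over the 13005 genes tested. By unadjusted p it ranked 48 of 13005, and 0.446% of genes had a larger difference in either direction. Without serum replicate 2 the log2 fold change was 4.25 and the unadjusted p 0.0963. Myc lies at chr15:61816946-61821929 on the plus strand (build mm9, as for each gene position that follows). All of its exonic words of 43 bases, the read length, were unique to it among annotated protein-coding transcripts, the only ones searched.

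In a bulk sample, fewer cells with a transcript and less of it per cell cannot be told apart. This holds for each level given here.

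Mycn, a family member prominent in the early embryo, had 1053 and 894 normalized counts in serum ESCs against 1205 and 573 in 2i ESCs. The groups overlapped, and the 2i libraries differed from each other by 2.10 times. Serum over 2i gave a log2 fold change of 0.22 (SE 0.51, 95% interval -1.02 to 1.46, adjusted p 0.929). Mycl1, which encodes L-MYC, the weakest transforming protein of the family, had 262 and 129 normalized counts in serum ESCs against 187 and 209 in 2i ESCs. Its groups overlapped as well, with a log2 fold change of -0.10 (SE 0.57, 95% interval -1.48 to 1.28, adjusted p 0.975). These intervals leave room for a change of more than 2-fold in either direction for Mycn and Mycl1. Mycn lies at chr12:12942902-12948720 on the minus strand and Mycl1 at chr4:122672895-122679728 on the plus strand.

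**Figure D1:**
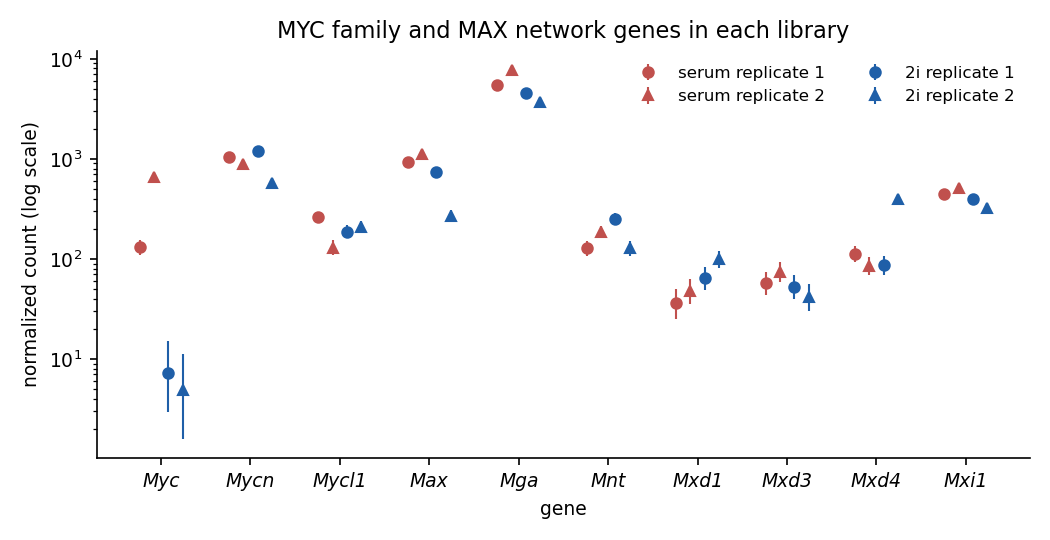
Normalized counts of the 10 genes on a log axis, with 1 point for each of the 4 libraries and colours for serum and 2i. Myc shows the widest gap between groups, with 131 and 657 in serum against 7.27 and 4.85 in 2i, whereas the points of Mycn, Mycl1, Mnt and Mxd4 mix.

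The ratio of Myc to Mycn was compared directly, since a difference between the responses of these genes needs its own test. On the log2 scale it was -3.00 and -0.44 in serum ESCs and -7.19 and -6.62 in 2i ESCs. Mycn exceeded Myc in every library, and the gap was narrower in both serum libraries than in both 2i libraries. The difference between groups was 5.18, with an exact two-sided permutation p of 0.333, the smallest that 2 libraries against 2 can give. The log2 ratio of Myc to Mycl1 differed by 5.51 (exact permutation p 0.333) and that of Mycn to Mycl1 by 0.32 (exact permutation p 0.667).

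Per kilobase (kb) of merged exon, which allows levels of different genes to be set side by side, the summed level of the family was 433 and 545 normalized counts per kb in serum ESCs against 415 and 228 in 2i ESCs. Myc made up 11.1% and 44.3% of this sum in serum and 0.644% and 0.784% in 2i. Mycn was the largest share in each library, with 73.9% and 49.8% in serum ESCs against 88.2% and 76.5% in 2i ESCs. Mycl1 held 15.0% and 5.87% in serum ESCs against 11.1% and 22.7% in 2i ESCs. The Myc share was thus lower in both 2i libraries. The summed level of the family was also lower in both 2i libraries than in both serum libraries, though 2i replicate 1 (415) was close to serum replicate 1 (433).

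Max, the obligate partner of the MYC, MXD and MGA proteins, had 928 and 1109 normalized counts in serum ESCs against 742 and 272 in 2i ESCs. Both serum libraries lay above both 2i libraries, but the 2i libraries differed from each other by 2.73 times. The log2 fold change was 1.17 (SE 0.59, 95% interval -0.24 to 2.58, unadjusted p 0.0886, adjusted p 0.753). Most of this difference came with 2i replicate 2: without that library the log2 fold change was 0.45, and without 2i replicate 1 it was 1.90. Max lies at chr12:78038256-78063235 on the minus strand and carries the E-box closest to its start site among the members. Relative to Max, the summed family level per kb was 0.935 and 0.986 in serum ESCs against 1.12 and 1.68 in 2i ESCs. The log2 ratio of Max to Mycn was -0.18 and 0.31 in serum ESCs and -0.70 and -1.07 in 2i ESCs, a difference of 0.95 (exact permutation p 0.333).

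Mga, a very large protein with a second DNA-binding domain of the T-box kind, was the most abundant member by count, with 5487 and 7688 normalized counts in serum ESCs against 4571 and 3696 in 2i ESCs. The groups did not overlap, and the difference between groups exceeded the difference between the libraries of either group. Its log2 fold change was 0.66 (SE 0.48, 95% interval -0.50 to 1.82, adjusted p 0.763). Mga has 15340 bases of merged exon, the longest of the 10, and with gene length and GC content corrected in each library its log2 fold change was 0.16. Per kb it was at 358 and 501 in serum ESCs against 298 and 241 in 2i ESCs, a level of the same order as that of Max. The log2 ratio of Mga to Max differed by -0.51 between groups (exact permutation p 0.667). Mga lies at chr2:119722964-119795317 on the plus strand.

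Of the antagonists, Mnt, which is widely expressed and is thought to buffer MYC activity, had 128 and 187 normalized counts in serum ESCs against 253 and 128 in 2i ESCs. The groups overlapped (log2 fold change -0.22, SE 0.60, 95% interval -1.68 to 1.24, adjusted p 0.939). Mxi1 (also known as Mxd2) was the most abundant antagonist by count in every library but 1, with 444 and 512 normalized counts in serum ESCs against 399 and 325 in 2i ESCs. Both serum values of Mxi1 lay above both 2i values, though the counting intervals of serum replicate 1 (404 to 488) and 2i replicate 1 (360 to 441) overlapped. Its log2 fold change was 0.41 (SE 0.44, 95% interval -0.66 to 1.47, adjusted p 0.836). With gene length and GC content corrected it was 0.11. The exception was 2i replicate 2, in which Mxd4 was higher. Mnt lies at chr11:74644422-74659227 and Mxi1 at chr19:53384996-53450300, both on the plus strand. Part of the exons of Mxi1 overlaps the antisense gene Gm10197 over 194 bases, and since strand was not stated, reads there could not be assigned to either gene.

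Mxd1, which is known to be induced when cells leave the cell cycle and differentiate, was the only member with both serum values below both 2i values. It had 36.0 and 47.6 normalized counts in serum ESCs against 64.4 and 99.9 in 2i ESCs, so that the lower 2i value was 1.35 times the higher serum value. The counting intervals of these 2 values overlapped, at 35.2 to 63.0 for serum replicate 2 and 49.3 to 82.5 for 2i replicate 1. Mxd1 had a log2 fold change of -0.94 (SE 0.85, 95% interval -2.99 to 1.11, adjusted p 0.792), larger in size than the difference between the libraries of either group but not called. Mxd3, the member most tied to dividing cells, had 57.0 and 74.8 normalized counts in serum ESCs against 52.9 and 41.7 in 2i ESCs. Its groups did not overlap, but the counting intervals of serum replicate 1 (43.2 to 73.9) and 2i replicate 1 (39.4 to 69.6) did. The log2 fold change of Mxd3 was 0.47 (SE 0.86, 95% interval -1.59 to 2.53, adjusted p 0.910). Its exons overlap those of Prelid1 on the opposite strand over 104 bases. Of the exonic words of 43 bases of Mxd3, 95.2% were unique among annotated protein-coding transcripts. Mxd1 lies at chr6:86597038-86619153 and Mxd3 at chr13:55426529-55431119, both on the minus strand.

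Mxd4, an antagonist found in resting and differentiated cells, had 112 and 85.5 normalized counts in serum ESCs against 86.2 and 394 in 2i ESCs. A single library, 2i replicate 2, was high, and the other 3 lay between 85.5 and 112. The log2 fold change was -0.91 (SE 0.83, 95% interval -2.91 to 1.10, adjusted p 0.796), but leaving out 2i replicate 2 gave 0.18, and leaving out 2i replicate 1 gave -2.00. In the same library Max was at its lowest. The log2 ratio of Mxd4 to Max was -3.04 and -3.68 in serum, -3.09 in 2i replicate 1 and 0.53 in 2i replicate 2 (exact permutation p 0.667 for the difference between groups). Mxd4 lies at chr5:34516536-34530369 on the minus strand.

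**Figure D2:**
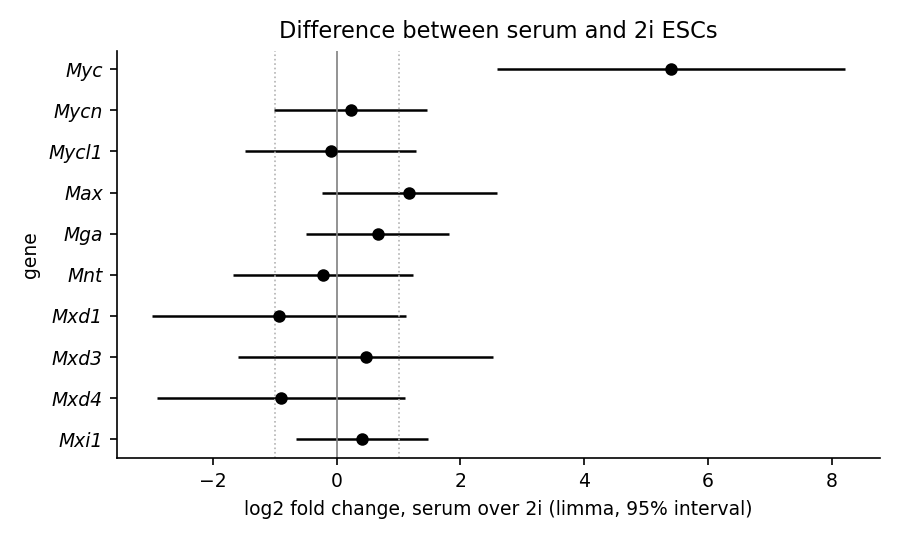
Log2 fold changes of the 10 genes, serum over 2i, from limma with 95% intervals (horizontal axis), 1 gene per row. The interval of Myc (2.59 to 8.22) is the only one that does not include 0, and no gene passed the adjusted threshold.

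Counted over the members, 0 of 10 were called by limma at an adjusted p under 0.05 and a fold change of 2, where 0% of the 13005 genes were called higher in serum and 0.0154% higher in 2i. At an unadjusted p under 0.05 with the same fold, 1 member (Myc) was higher in serum, beside 2.97% of all genes, and 0 were higher in 2i, beside 3% of all genes. On the whole reads, DESeq2 called 1 member (Myc) higher in serum at an adjusted p of 1.6e-05, beside 0.561% of all genes, and edgeR called 0, beside 0% of all genes. Serum values lay wholly above 2i values for 5 of 10 members (Myc, Max, Mga, Mxd3 and Mxi1), beside 20.5% of all genes, and wholly below for 1 (Mxd1), beside 19.4%. For 5 members (Myc, Mga, Mxd1, Mxd3 and Mxi1) the difference between groups exceeded the difference within both groups, beside 26.3% of all genes.

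Summed per kb, the antagonists Mnt, Mxd1, Mxd3, Mxd4 and Mxi1 reached 171 and 199.7 normalized counts per kb in serum ESCs against 187 and 228 in 2i ESCs. The MYC family exceeded this sum 2.54 and 2.73 times in serum and 2.22 times in 2i replicate 1, and the ratio was 0.996 in 2i replicate 2. In that last library the family sum was 228 normalized counts per kb against 415 in 2i replicate 1, with Mycn at 174 against 366. It is again the library in which Mxd4 was high, where Mxd4 held 44.4% of the antagonist sum against 11.0% to 16.9% elsewhere. Mxi1 was the largest share in the other 3 libraries, with 46.3% and 45.6% in serum and 37.9% in 2i replicate 1. In terms of levels, then, the balance of family to antagonists was near that of serum in 1 of the 2i libraries and not in the other.

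**Figure D3:**
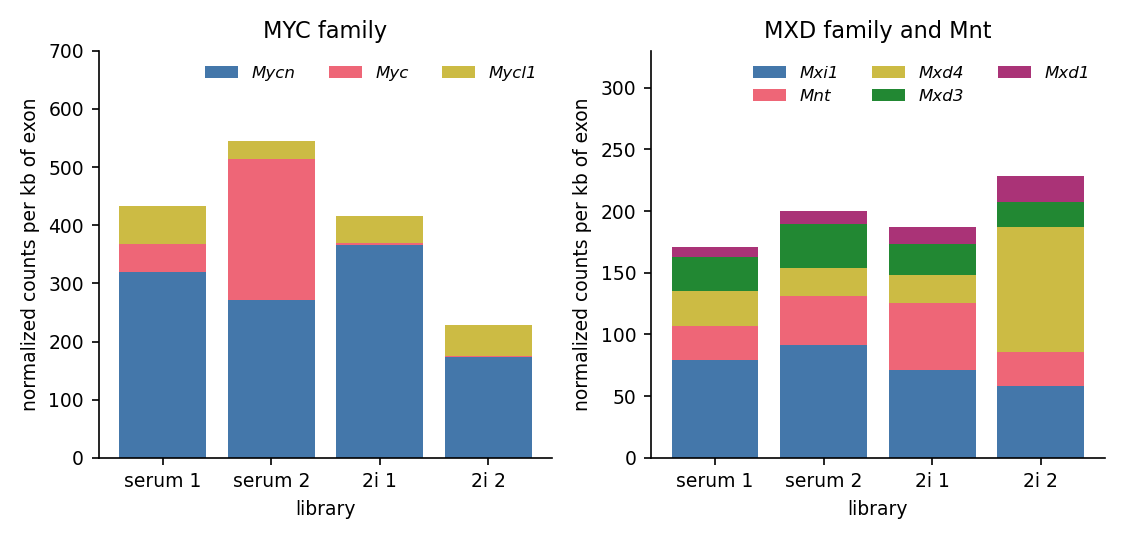
Stacked bars of normalized counts per kb of exon for each of the 4 libraries, for the MYC family and for the antagonists. The Myc segment is visible in both serum bars and is 0.644% and 0.784% of the family bar in 2i, and the Mxd4 segment is widest in 2i replicate 2.

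By mean level per kb in serum, Max (508) and Mga (429) stood first and overlapped each other. Mycn (296) followed below both, then Myc (145), whose libraries straddled those of Mxi1 (85.1). Mycl1 (48.5), Mnt (34.0), Mxd3 (31.7) and Mxd4 (25.4) overlapped each with its neighbour, and Mxd1 (8.97) lay below the rest. In 2i, Mycn (270.1), Mga (269) and Max (253) overlapped at the top. Mxi1 (64.4), Mxd4 (61.8), Mycl1 (49.0) and Mnt (41.2) formed an overlapping middle group. Mxd3 (22.7) and Mxd1 (17.6) overlapped each other and had lower means, though the lower Mxd4 library (22.2) lay under the higher Mxd3 library (25.4). Myc (2.23) was last and apart from Mxd1. Hence Myc stood below Max, Mga and Mycn in serum and last in 2i, whereas Max, Mga and Mycn held the first 3 places in both groups.

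The genes with the most similar pattern over the 4 libraries were sought by Euclidean distance between centred log2 values over 11815 protein-coding genes. Nearest to Myc was Gap43, a growth-cone protein of neurons, at a distance of 0.72, with 27.0 and 151 normalized counts in serum and listed at 0 in both 2i libraries. Next was Spry4, a feedback inhibitor that is transcribed upon ERK signaling, at a distance of 1.05, with 536 and 3973 normalized counts in serum ESCs against 59.2 and 15.5 in 2i ESCs. In Gap43 and Spry4, as in Myc, serum replicate 2 was several times above serum replicate 1. The third was an entry that the annotation names Cdc73 (ENSMUSG00000078284), at 1.76, with 67.0 and 72.9 in serum and listed at 0 in both 2i libraries. Nearest to Mycn were Tcf4 at 0.053, Med15 at 0.088 and Tpd52 at 0.105. Each of these had its lowest value in 2i replicate 2, as for Tcf4 with 683 and 566 normalized counts in serum ESCs against 746 and 369.6 in 2i ESCs. Distances over 4 libraries of which 2 share a group are a description only.

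The other genes of the network were grouped by role into lists that hold 78 genes of the table, of which 77 passed the filter. By limma, 0 of 77 were called at the adjusted threshold, whereas at the unadjusted threshold 8 were higher in serum and 1 higher in 2i, beside the 2.97% and 3% of all genes given above. DESeq2 called 2 of them (Ccnd2 and Skp2), and edgeR 0. For comparison, the median log2 fold change of all genes was 0.0047, and 50.3% of genes were higher in serum. Serum values lay wholly above 2i values for 20.5% of all genes and wholly below for 19.4%, the shares beside which such counts in the lists stand. Each gene named from these lists for its unadjusted p had an adjusted p of 0.753.

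MYC targets, genes of ribosome production, nucleotide and amino acid supply and the cell cycle, had a median log2 fold change of 0.59 over 25 of 25 genes tested. Of these, 21 were higher in serum, and 13 lay wholly above the 2i values with 0 wholly below. The median was 0.37 when serum replicate 2 was left out and 0.85 when replicate 1 was. The unadjusted threshold was passed by 3 of them, all higher in serum. Ccnd2, which encodes cyclin D2, had 351 and 713 normalized counts in serum ESCs against 113 and 39.8 in 2i ESCs (log2 fold change 2.88, SE 0.71, unadjusted p 0.00589), and DESeq2 also called it. Ncl, which encodes the nucleolar protein nucleolin, had 14591 and 52140 in serum ESCs against 10509 and 3559 in 2i ESCs (2.17, SE 0.85, unadjusted p 0.0407). Its serum libraries did not overlap the 2i libraries but were several times apart from each other. Pa2g4, a growth-associated RNA-binding protein, had 5609 and 7919 in serum ESCs against 3271 and 2475 in 2i ESCs (1.23, SE 0.48, unadjusted p 0.0403). At the other end was Tert, the catalytic subunit of telomerase, with 389 and 140 in serum ESCs against 582 and 312 in 2i ESCs, a log2 fold change of -0.87 that did not pass.

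Regulators of the stability of MYC proteins had a median log2 fold change of 0.96 over 10 of 10 genes, of which 9 were higher in serum, 6 lay wholly above 2i and 3 passed the unadjusted threshold. Skp2, the receptor of a ubiquitin ligase that acts on MYC, had 1129 and 1601 normalized counts in serum ESCs against 485 and 477 in 2i ESCs (log2 fold change 1.48, SE 0.44, unadjusted p 0.0134), and was called by DESeq2. Aurka, a mitotic kinase that shields MYCN from degradation, had 738 and 1159 in serum ESCs against 247 and 383 in 2i ESCs (1.58, SE 0.49, unadjusted p 0.0166). Cip2a, an inhibitor of the phosphatase that destabilizes MYC, had 1440 and 3162 in serum ESCs against 845 and 825 in 2i ESCs (1.35, SE 0.52, unadjusted p 0.0384). In all 3 genes the serum libraries lay above the 2i libraries. With gene length and GC content corrected the median of the list was 0.58. Cip2a no longer passed in that fit (0.83, limma unadjusted p 0.0702), whereas Ppp2r5a did (1.55, limma unadjusted p 0.0315). Without serum replicate 2 the median was 0.55. Gsk3b, the kinase that CHIR99021 inhibits, was the lowest of the list, with a log2 fold change of -0.27 and overlapping groups.

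Genes of the G2- and M-phase differed in the same direction as these lists. All 16 were higher in serum, with a median log2 fold change of 1.62, 11 passed the unadjusted threshold and 15 lay wholly above 2i. Their summed level was 35965 and 51028 normalized counts in serum ESCs against 20347 and 15635 in 2i ESCs, and none was at 0. The weakest was Top2a (log2 fold change 0.57) and the strongest Kif23 (2.32). Aurka belongs to both lists. The part of these genes in the differences of the MYC targets, the stability regulators and the members was not tested.

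**Figure D4:**
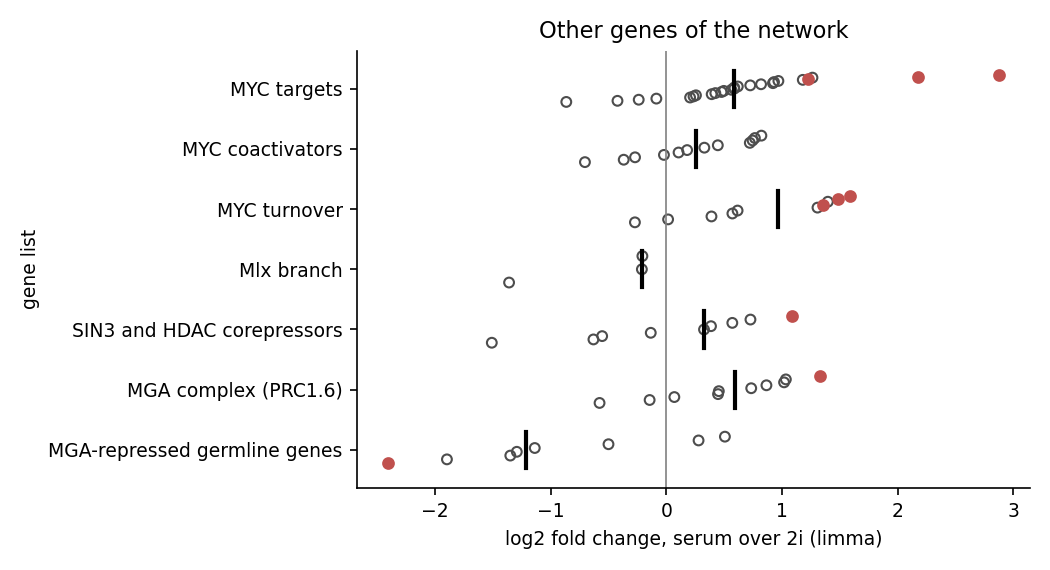
Log2 fold changes, serum over 2i, of the single genes of each network list (points, 1 row per list) on the horizontal axis, with the list median marked. The G2- and M-phase genes are not shown. Most MYC targets lie to the right of 0 with a median of 0.59, and most germline genes lie to the left with a median of -1.22.

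Coactivators of MYC had a median log2 fold change of 0.25 over 12 of 12 genes, of which 8 were higher in serum and 0 passed the unadjusted threshold. This median was 0.012 without serum replicate 2, 0.50 without serum replicate 1, 0.073 with quantile scaling and 0.44 with gene length and GC content corrected. In that corrected fit Ruvbl2 passed (log2 fold change 1.10, limma unadjusted p 0.0233). Without the correction the coactivators ranged from -0.71 for Zbtb17, a zinc-finger protein through which MYC represses, to 0.82 for Hcfc1, a host cell factor that binds MYC. The SIN3 and histone deacetylase corepressors of the MXD proteins had a median of 0.32 over 9 of 9, of which 5 were higher in serum. Sin3a, the scaffold that MXD proteins bind, had 2973 and 4008 normalized counts in serum ESCs against 1714 and 1535 in 2i ESCs (log2 fold change 1.09, SE 0.44, unadjusted p 0.0460) and was the only corepressor past the unadjusted threshold. With gene length and GC content corrected the corepressor median was 0.027 and Sin3a no longer passed (0.88, unadjusted p 0.0560), and the median was 0.066 when serum replicate 2 was left out and 0.55 when replicate 1 was. The Mlx branch, a parallel network that senses glucose, had 0 of 3 genes higher in serum, with a median of -0.21 that turned to 0.17 without serum replicate 1 and was -1.22 without 2i replicate 2. It ran from -1.36 for Mlxipl (21.0 and 13.6 normalized counts in serum ESCs, 79.9 and 25.2 in 2i ESCs) to -0.21 for Mlxip.

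Partners of MGA in its Polycomb complex had a median log2 fold change of 0.59 over 10 of 10 genes, of which 8 were higher in serum. Serum values lay wholly above 2i for 6 of them, beside 20.5% of all genes, and wholly below for 2, near the 19.4% of all genes. The median was 0.35 without serum replicate 2. Cbx1, which encodes a heterochromatin protein, had 4138 and 6331 normalized counts in serum ESCs against 2551 and 1637 in 2i ESCs (log2 fold change 1.32, SE 0.50, unadjusted p 0.0352). Ring1, a ubiquitin ligase of Polycomb complexes, was the lowest at -0.58.

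Germline genes that the MGA complex is known to silence had the opposite sign. The median log2 fold change was -1.22 over 8 genes tested of 10 listed, 6 of the 8 were higher in 2i, and 4 lay wholly below 2i in serum with 0 wholly above. Dazl, which encodes a germ cell RNA-binding protein, had 487 and 147 normalized counts in serum ESCs against 1148 and 1773 in 2i ESCs (log2 fold change -2.41, SE 0.66, unadjusted p 0.00965), the only one past the unadjusted threshold. Sycp3, a protein of the meiotic chromosome axis, had 60.03 and 115 in serum ESCs against 191 and 220.2 in 2i ESCs. Taf7l, a germ cell transcription factor subunit, had 80.0 and 42.8 in serum ESCs against 171 and 133 in 2i ESCs. Slc25a31, a mitochondrial carrier of the testis, had 9.005 and 20.4 in serum ESCs against 59.2 and 48.5 in 2i ESCs. These were separated between groups in each case, whereas Ddx4, Mael, Stk31 and Hormad1 overlapped. Ddx4, a germ cell RNA helicase, was the highest of the list, at 0.51. Tdrkh did not pass the filter (3.002 and 31.1 in serum ESCs, 52.9 and 8.73 in 2i ESCs), and Tex101 was not analysed here.

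The E-box was found in the promoter windows of 7 of the 10 listed germline genes, against 8.09% of all genes with a window and 6 of 19 MYC targets. Dazl, which differed most, had no such box in its window. The boxes of the 3 germline genes with one whose serum values lay wholly below 2i are shown, again on GRCm38.p6 with the box in capitals. They began 93 bases before the start site for Slc25a31 (chr3:40708768-40708793, plus strand), 49 for Taf7l (chrX:134476524-134476549, minus strand), and 64 and 43 for the boxes of Sycp3 (chr10:88459513-88459538 and chr10:88459534-88459559, plus strand). The Ddx4 box, 29 bases before its start (chr13:112652324-112652349, minus strand), is given for contrast, as its groups overlapped.
Slc25a31: caactggaaaCACGTGttatggtcac
Taf7l: cctcttatacCACGTGacagaactcg
Sycp3 first: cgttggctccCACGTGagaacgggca
Sycp3 second: gggcatggagCACGTGctaggaggcg
Ddx4: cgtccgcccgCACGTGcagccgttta
A match of these letters is a description and not evidence of binding, and the members that hold the box had log2 fold changes of 1.17 (Max), -0.22 (Mnt) and -0.91 (Mxd4), none of them called.

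Markers of primitive endoderm, a cell type that can arise in ESC cultures, were checked beside these results. Gata4 had 13.0 and 42.8 normalized counts in serum ESCs against 152 and 169 in 2i ESCs (log2 fold change -2.70, unadjusted p 0.0238). Gata6 had 5.003 and 16.5 in serum ESCs against 87.2 and 27.2 in 2i ESCs, and Sox17 had 7.004 and 7.78 in serum ESCs against 33.2 and 32.98 in 2i ESCs. These 3 were higher in both 2i libraries than in both serum libraries, and none was at 0. Lama1 (1384 and 2219 in serum ESCs, 1518 and 1433 in 2i ESCs, log2 fold change 0.25) and Pdgfra (47.0 and 41.8 in serum ESCs, 60.2 and 27.2 in 2i ESCs), the other 2 in the table, overlapped between groups. The summed level of the 5 markers, most of it Lama1, was 1456 and 2328 in serum ESCs against 1849.9 and 1689 in 2i ESCs. Among ESC markers, 4 of 10 were higher in serum, from Fbxo15 (2171 and 1140.1 in serum ESCs, 2993 and 6998 in 2i ESCs, log2 fold change -1.54, unadjusted p 0.0413) to Utf1 (576 and 828 in serum ESCs, 634 and 128 in 2i ESCs, 1.27). The part of these markers in the differences of the germline genes and of Mxd1 was not tested.

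**Figure D5:**
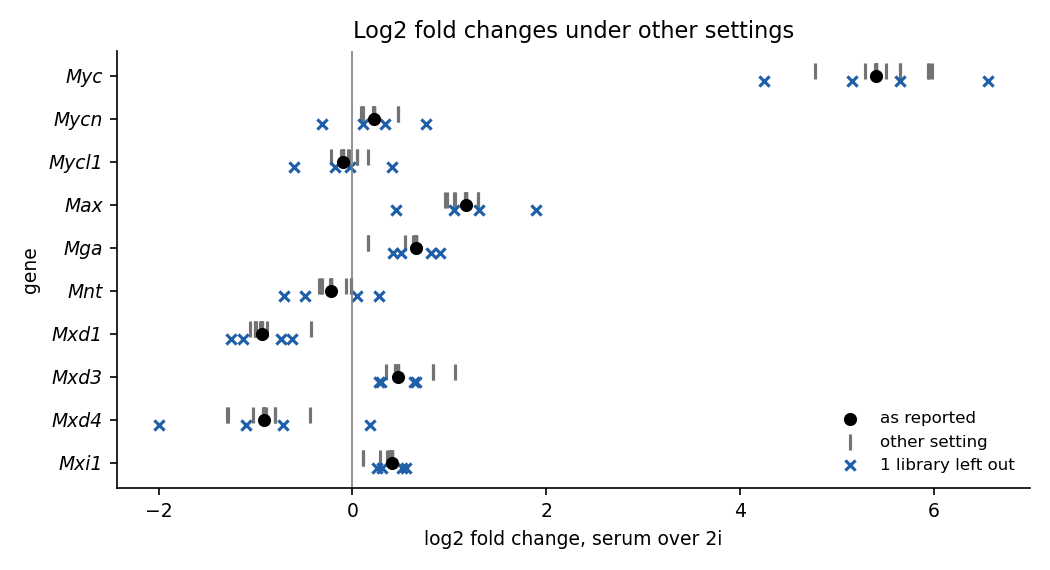
Log2 fold changes of the 10 genes, serum over 2i, under the reported setting and 18 alternatives (points on the horizontal axis, 1 gene per row). Myc stays between 4.25 and 6.56, whereas points of Mycn, Mycl1, Mnt and Mxd4 fall on both sides of 0.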

How the data were processed

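RNA of 4 libraries of G1-sorted ESCs, 2 in serum and 2 in 2i, was analysed. Per the study's methods, total RNA was depleted of ribosomal RNA, primed at random, sequenced as single reads of 43 bases, aligned to mm9 with Bowtie and quantified with MMSeq. The authors deposited a signal, in which each library's gene counts had been divided by the size factor DESeq2 gave it (normalized counts). All values (100%) were whole multiples of 1 step per library within 0.01 steps, so that whole reads could be recovered, 18939401 to 26570098 per library. Whether strand was kept was not given in the sources used here.

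The 13005 genes whose mean reached 50 normalized counts in serum or in 2i were tested with limma 3.58.1 under R 4.3.3, on the log2 of the normalized count plus 1, with a variance trend, serum minus 2i, with Benjamini-Hochberg adjustment over all of them. Fold changes are on this scale, which understates those of low genes. Calls needed an adjusted p under 0.05 and a fold change beyond 2. Counts were tested with edgeR 4.0.16 and DESeq2 1.42.0 as alternatives, because the deposited values are scaled. Single ratios were tested by exact permutation over the libraries. The fit was tested on simulated data. Positions and exon lengths came from GENCODE vM1, of the same build, and promoters from RefSeq.

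Members and lists were chosen with earlier results of these data known. All 10 members were named. From other lists, genes past a threshold, the highest and lowest, and defining markers were named, with the 3 genes nearest to Myc and to Mycn. Further germline genes were named after their values were seen. The values of 1 listed gene are not reported here. The alternatives, 18 in all, are described in the closing section.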

Additional observations from a re-analysis of the deposited data

How the results depend on the processing

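The 18 alternatives were pseudocounts of 0.5 and 5, no filter, a minimum mean of 200 in place of the filter, protein-coding genes alone, TMM, upper quartile and quantile scaling, no variance trend, a correction for GC content and length, a replicate block with and without that correction, edgeR, DESeq2, and leaving out each library. The log2 fold changes of Myc (4.25 to 6.56), Max (0.45 to 1.90), Mga (0.16 to 0.90), Mxd1 (-1.25 to -0.43), Mxd3 (0.27 to 1.06) and Mxi1 (0.11 to 0.55) kept their sign under each alternative that gave a value. The mean of at least 200 left Mycl1, Mnt, Mxd1, Mxd3 and Mxd4 without a value. The sign turned for Mycl1 with quantile scaling (0.16), with the GC and length correction (0.048, also with the block) and without serum replicate 2 (0.41, range -0.61 to 0.41). It also turned for Mycn without 2i replicate 2 (-0.31, range -0.31 to 0.76), for Mnt without serum replicate 1 (0.05) or 2i replicate 1 (0.27, range -0.71 to 0.27), and for Mxd4 without 2i replicate 2 (0.18, range -2.00 to 0.18). The cause was not tested. The median of all genes was -0.12 with upper quartile scaling and 0.12 at a mean of at least 200.

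DESeq2 called Myc (log2 fold change 5.99, adjusted p 1.6e-05), and thus 1 member higher in serum in place of 0. Over all genes it called 73 higher in serum and 178 higher in 2i, in place of 0 and 2. The latter count was 4 at a mean of at least 200, 1 without a trend, 0 for protein-coding genes alone, with edgeR and with the GC and length correction with or without the block, and 0 to 0 when a library was left out. The count of members higher in serum at the unadjusted threshold, 1, was 0 at a mean of at least 200 (Myc, limma unadjusted p 0.0742). The count higher in 2i, 0, was the same in each fit on all 4 libraries. Without serum replicate 2 the log2 fold change of Myc was 4.25. Without 2i replicate 1 that of Max was 1.90 and that of Mxd4 was -2.00. Of the other network genes, the 8 higher in serum became 3 without a trend and 4 with edgeR, where edgeR gave 2.21% of all genes. The 1 higher in 2i became 2 without a trend and stayed 1 with edgeR, where edgeR gave 3.81% of all genes. With the GC and length correction 9 were higher in serum, beside 3.63% of genes, and 3 higher in 2i, beside 3.6%. Cip2a and Sin3a dropped out under that correction, whereas Ruvbl2, Ppp2r5a, Odc1, Sycp3 and Stk31 came in.

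Both groups number their replicates 1 and 2, but no label says that a number marks a shared culture or day. Across 13005 genes the replicate differences of the groups correlated at 0.480, which 2 pairs cannot show to be a pairing. With the replicate block, limma called 44 genes higher in serum and 159 higher in 2i, which is 0.338% and 1.22% of the genes tested. Among them was 1 member (Myc, limma adjusted p 0.00761). At the unadjusted threshold 2 members (Myc and Max) were higher in serum, beside 4.9% of genes. The same 2 passed with the block and the GC and length correction, beside 4.42% of genes. In that fit 4 other network genes were higher in 2i, beside 4.71% of genes. With that correction added, Myc was no longer called (adjusted p 0.316) and 0 genes were called in either direction. Of the other network genes the block alone called Ccnd2 (adjusted p 0.0212) and Dazl (adjusted p 0.0215). For the ratio of Myc to Mycn, whose difference of 5.18 the block cannot alter in this balanced design, the exact permutation p within pairs was 0.5. With 2 libraries a group and a residual of 2 degrees of freedom, the spread between replicates, and for Myc in 2i the depth (7 and 5 reads), limits what can be said.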
